A study of Mus musculus with 9 samples.

Results

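The AP-1 family was followed here through 10 genes: Fos, Fosb, Fosl1 and Fosl2 of the Fos family, Jun, Junb and Jund of the Jun family, and the related factors Atf3, Batf and Maff. The genes were taken by name. All 10 were found among the 56748 genes of the count table, and all 10 were among the 18093 genes with enough counts to be tested. RNA was sequenced from 9 libraries of wild-type C57BL/6J mouse cortex aged 2 to 3 months, with 3 biological replicates in each of 3 groups. For the reactive cultures, lesion cores were dissected and their cells grown in DMEM/F12 with B27 and 10% fetal bovine serum, and RNA was taken from the whole unsorted culture. Injured cortex was the lesion core after a grid of lancet stab wounds, and uninjured cortex had no wound. Both in vivo groups were dissociated with papain and passed through flow cytometry that left out debris, dead cells and neurons (CD171+ and ACSA-2-), so that papain and sorting set both in vivo groups apart from the cultures. The sources differ on the times: by the labels, tissue was taken 1 day after injury and cultures were kept for 6 days, but by the design text injured cortex was taken at 3 days and the cultures were started at 24 h and kept for 8 days in vitro. No time is assigned to a group here.

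AP-1 is a dimer of basic leucine zipper proteins. Jun proteins pair with each other or with Fos proteins, while Fos proteins need a Jun partner, and the dimers bind the TPA response element TGACTCA or the related cyclic AMP response element TGACGTCA. Fos, Fosb, Jun, Junb and Atf3 are immediate early or stress genes whose messages appear within minutes of a stimulus and decay quickly. In brain tissue they are known to respond to injury and to enzymatic dissociation at warm temperature. Fosl1 and Fosl2 encode the Fos-related antigens FRA1 and FRA2, which lack the strong activation domain of c-Fos and are known to follow later in sustained signalling.

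Upstream sequences are shown for the Fos, Jun, Junb and Atf3 genes, whose messages made up most of the family and whose levels the comparisons turn on. They are the 250 bases before the RefSeq start (GRCm38.p6), 5′ to 3′ on the strand of the gene. Fos lies at chr12:85473640-85473889 (plus strand), Jun at chr4:95052223-95052472 (minus), Junb at chr8:84978749-84978998 (minus) and Atf3 at chr1:191183334-191183583 (minus). Capitals mark the letters TGACGT or TGACNTCA read on either strand, where N is any base.
Fos: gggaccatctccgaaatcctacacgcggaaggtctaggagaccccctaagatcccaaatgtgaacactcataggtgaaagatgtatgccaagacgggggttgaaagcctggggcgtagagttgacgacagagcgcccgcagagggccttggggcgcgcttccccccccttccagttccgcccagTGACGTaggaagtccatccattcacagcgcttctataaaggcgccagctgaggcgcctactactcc
Jun: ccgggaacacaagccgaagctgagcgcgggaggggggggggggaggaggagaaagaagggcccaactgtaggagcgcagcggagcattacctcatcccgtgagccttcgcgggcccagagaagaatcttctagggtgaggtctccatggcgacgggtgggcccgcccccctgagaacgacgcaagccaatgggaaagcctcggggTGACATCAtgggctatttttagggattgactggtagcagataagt
Junb: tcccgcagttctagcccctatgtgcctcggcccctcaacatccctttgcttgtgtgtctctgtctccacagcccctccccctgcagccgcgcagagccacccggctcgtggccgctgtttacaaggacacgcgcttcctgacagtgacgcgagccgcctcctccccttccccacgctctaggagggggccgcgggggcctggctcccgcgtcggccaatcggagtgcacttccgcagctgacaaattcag
Atf3: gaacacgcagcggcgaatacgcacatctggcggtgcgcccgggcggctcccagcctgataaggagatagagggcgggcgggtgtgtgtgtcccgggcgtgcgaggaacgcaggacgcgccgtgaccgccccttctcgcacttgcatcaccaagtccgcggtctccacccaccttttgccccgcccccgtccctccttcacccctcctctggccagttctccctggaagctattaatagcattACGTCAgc

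The promoter table held 9 of the 10 members in 11 windows, and Fosl1 had no entry. TGACGT stood 66 bases before the start in Fos and 98 bases before it in Batf. In Atf3 the capitals are the same motif on the opposite strand, 8 bases before the start. TGACATCA began 45 bases before the start in Jun. Of the 3 Maff windows, 1 held TGACGTCA 29 bases before the start, where the TGACGT and TGACNTCA matches overlap, and another held TGACATCA 45 bases before it. Both of these Maff windows, and the Fosb window, overlap the body of the RefSeq gene itself. The TPA response element TGACTCA and the CArG box of serum response factor were in 0 of the 11 windows. Sequence outside these 250 bases was not searched, so sites farther from the start are not covered. Among 32851 windows of the same length from all genes, 4.46% held TGACTCA, 7.49% held TGACNTCA, 6.47% held TGACGT and 1.47% held the CArG box. The motifs were chosen after the sequences were seen, and a match describes letters only.

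Library totals were 16667883 to 24302770 counts in the cultures, 20389561 to 21135163 in injured cortex and 12205049 to 18577561 in uninjured cortex. Uninjured replicates 2 and 3 stood apart: the 1999 genes of olfactory and vomeronasal receptors added up to 182 and 151 CPM (counts scaled to the library total) in them, against 44.1 CPM in uninjured replicate 1 and 14.4 to 25.6 CPM in the cultures and injured cortex. Values of the members and lists against uninjured cortex are therefore also given with both of them left out. The groups also differed in cell type markers. Summed over 8 microglial markers the level was 1168 to 1788 CPM in the cultures, 7924 to 14744 CPM in injured cortex and 12741 to 17259 CPM in uninjured cortex. Over 10 monocyte and macrophage markers it was 30398 to 35418, 2642 to 9328 and 549 to 758 CPM in the same order of groups, but Lyz2 alone made up 99.8% of that sum in each culture and 72.8% to 92.5% in vivo. Of these 10 markers 2 were higher and 6 lower in cultures than in injured cortex (median log2 fold change -3.55), and 4 were higher and 5 lower than in uninjured cortex (-1.63). Of all genes 20.0% were higher and 30.1% lower than in injured cortex, and 27.5% and 33.1% than in uninjured cortex. The monocyte receptor gene Ccr2 was at 0.617 to 2.12 CPM in the cultures, 69.5 to 205 CPM in injured cortex and 3.37 to 8.13 CPM in uninjured cortex. Fibroblast markers summed to 220 to 498 CPM in the cultures, 62.5 to 117 CPM in injured cortex and 81.2 to 195 CPM in uninjured cortex. Proliferation genes summed to 597 to 687, 273 to 318 and 8.04 to 10.3 CPM. Oligodendrocyte markers summed to 312 to 605 CPM in the cultures, against 15563 to 18594 CPM in injured cortex and 26717 to 42397 CPM in uninjured cortex. Astrocyte markers summed to 77.1 to 137 CPM in the cultures, against 2514 to 5587 CPM in injured cortex and 4463 to 7447 CPM in uninjured cortex. Neuronal markers stayed at 8.05 to 26.9 CPM in every library. In bulk RNA, fewer cells of a type and less RNA per cell cannot be told apart, and the part of these markers in the results below was not tested.

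The family took a small share of each library in culture and a larger one in vivo. Reads of the 10 genes made up 0.0628%, 0.0640% and 0.0680% of all counts in the cultures, 0.666%, 0.796% and 0.588% in injured cortex, and 0.867%, 0.618% and 0.262% in uninjured cortex. The cultures lay below every in vivo library, and the in vivo groups overlapped. The two-sided exact permutation test gave p = 0.1 for the cultures against either in vivo group, which is the smallest p that 3 against 3 libraries allow, and p = 0.8 for injured against uninjured cortex. Uninjured cortex was the most spread of the groups, and its libraries ran in the same order in a list of dissociation and immediate early genes, described further below.

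Reactive cultures were compared with injured cortex to set the cells grown from a lesion beside the injured tissue itself. Of the 10 genes, 7 were lower in the cultures (Fos, Fosb, Fosl2, Jun, Junb, Jund and Atf3), Fosl1 was higher, and Batf and Maff did not pass the test (edgeR quasi-likelihood, adjusted p under 0.05 over all genes tested). The background was high: 50.1% of all genes tested were called, 30.1% lower and 20.0% higher. The median log2 fold change of the members was -1.83, against -0.19 over all genes. The same 8 genes had groups that did not overlap, 7 lower and 1 higher, against 59.7% of all genes, 33.8% lower and 25.8% higher. Fosb passed the filter on low counts through the in vivo libraries only, so its low level in the cultures is a description, and 6 of the other 9 genes were lower. The remaining members were over the filter in every group, except that Fosl1 was over it in 1 of the uninjured libraries.

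Against uninjured cortex, 5 genes were lower in the cultures (Fos, Fosb, Jun, Junb and Jund), Fosl1, Fosl2 and Maff were higher, and Atf3 and Batf did not pass. Here 60.5% of all genes were called, 33.1% lower and 27.5% higher, and the members' median log2 fold change was -1.58, against -0.17 over all genes. The 8 called genes were also those without overlap between groups, as were 69.2% of all genes, 37.1% lower and 32.1% higher. Fosb was again kept in the fit by the in vivo libraries only, so its place in these counts and in the median is a description. Fos, Jun, Junb and Jund were the other lower genes. Between injured and uninjured cortex, Fosl2 and Maff were higher and the other 8 genes did not pass the test, against 11.9% of all genes called, 8.99% higher and 2.87% lower. Fosl2 and Maff were also the members without overlap, against 28.6% of all genes, 16.1% higher and 12.5% lower. The members' median log2 fold change was 0.51, against 0.00 over all genes. Because the comparisons share libraries, their calls are not independent of each other.

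With uninjured replicates 2 and 3 left out, the log2 fold change of cultures against uninjured cortex was -4.88 for Fos and -4.01 for Jun. It was -3.34 for Junb, -2.39 for Jund, -1.83 for Atf3 and 2.46 for Fosl1. Fosb was at -7.39, Fosl2 at 0.84, Maff at 0.66 and Batf at -0.61. Between injured and uninjured cortex it was 1.70 for Fosl2, 0.94 for Maff, 0.55 for Fosb, 0.29 for Batf and 0.01 for Fosl1. Fos was at -0.15, Atf3 at -0.24, Junb at -0.29, Jund at -0.32 and Jun at -0.99. A single uninjured library, assumed to vary like the other groups, then stands for its group, so sizes alone are given here. The plot of log2 fold changes shows every member with its interval.

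**Figure D1:**
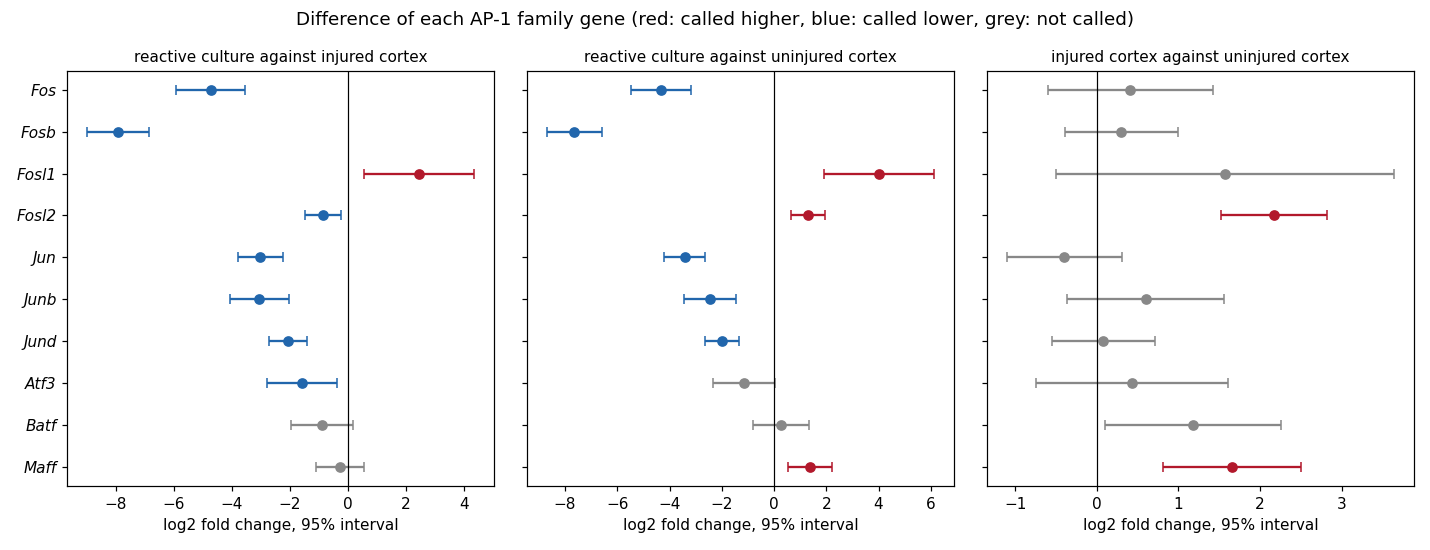
Log2 fold change of each of the 10 AP-1 family genes in the 3 comparisons (x axis, each panel with its own range), with 95% intervals from edgeR. Red points were called higher and blue points lower at an adjusted p under 0.05, and grey points were not called. Fosb lies farthest from 0 in both comparisons of the cultures, at -7.95 and -7.65, and Fosl1 is to the right of 0 in both.

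In the Fos family, Fos encodes c-Fos, the prototype immediate early factor. Fos was at 111, 107 and 97.1 CPM (scaled by TMM, as for all single genes) in cultures 1 to 3, at 3201, 3549 and 1664 CPM in injured cortex and at 3088, 2536 and 719 CPM in uninjured cortex. Every culture lay far below every in vivo library, while the 2 in vivo groups overlapped. The log2 fold change was -4.74 ± 0.54 (SE; edgeR adjusted p = 2.52e-05) for cultures against injured cortex and -4.33 ± 0.53 (adjusted p = 2.77e-05) against uninjured cortex. For injured against uninjured cortex it was 0.41 ± 0.46 (adjusted p = 0.63), with a 95% interval of -0.60 to 1.42. That last value turned to -0.02 without uninjured replicate 3 and to -0.15 without uninjured replicates 2 and 3.

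Fosb encodes a close relative of c-Fos whose truncated form, deltaFosB, is long-lived. It was at 0.307, 0.172 and 0.391 CPM in the cultures, from only 5, 3 and 5 reads, at 50.7, 54.6 and 108 CPM in injured cortex and at 48.0, 81.1 and 44.2 CPM in uninjured cortex. The message was near the limit of detection in culture and readily measured in vivo, with overlap between the in vivo groups. The fitted log2 fold changes of -7.95 for cultures against injured cortex and -7.65 against uninjured cortex depend on these few reads and describe a gene that only the in vivo libraries kept in the fit. Injured cortex differed from uninjured cortex by 0.30 ± 0.32 (edgeR adjusted p = 0.598).

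Fosl1, which encodes FRA1, was higher in the cultures. It was at 6.57, 9.49 and 7.90 CPM in the cultures (107, 165 and 101 reads), at 1.93, 1.99 and 0.511 CPM in injured cortex (41, 38 and 15 reads), and at 1.44, 0.045 and 0 CPM in uninjured cortex (26, 1 and 0 reads). The 0 in uninjured replicate 3 allows up to 0.246 CPM of the library total, taken as 3 reads and covering counting error only. All cultures lay above all in vivo libraries, and injured and uninjured cortex overlapped through uninjured replicate 1. The log2 fold change was 4.02 ± 0.97 (edgeR adjusted p = 0.00372) for cultures against uninjured cortex. Its size turned on uninjured replicate 1: it was 7.97 (adjusted p = 3.83e-05) with that library out and 2.46 (adjusted p = 0.031) with uninjured replicates 2 and 3 out. Against injured cortex it was 2.45 ± 0.87 (adjusted p = 0.0346), and this call was lost in several alternatives: the adjusted p was 0.108 with DESeq2, 0.0619 with library sizes without the most abundant genes, and 0.0558 to 0.0949 when culture replicate 1, 2 or 3 or injured replicate 1 or 3 was left out. Injured cortex differed from uninjured cortex by 1.57 ± 0.95 (adjusted p = 0.329), but it passed at 5.52 (adjusted p = 0.00488) without uninjured replicate 1. Without a filter on low counts it passed at 1.59 (adjusted p = 0.0276). That unfiltered fit gave much smaller p-values at nearly unchanged sizes. For Fosl1 in cultures against injured cortex it gave 2.44 with an edgeR adjusted p = 2.63e-06, so its calls are weak support. Ccdc85b overlaps Fosl1 on the opposite strand and was at 19.0 to 29.0 CPM in the cultures, 17.7 to 40.7 CPM in injured cortex and 23.7 to 25.6 CPM in uninjured cortex. The strand setting of the counting is not given in the sources used here, so reads of such a pair cannot be told apart.

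Fosl2, which encodes FRA2, was highest after injury in vivo. It was at 15.6, 13.4 and 15.5 CPM in the cultures, at 32.6, 18.1 and 30.5 CPM in injured cortex and at 8.23, 4.63 and 5.25 CPM in uninjured cortex. The 3 groups did not overlap, with the cultures between the in vivo groups. Fosl2 had a log2 fold change of 2.17 ± 0.30 (edgeR adjusted p = 0.000674) for injured against uninjured cortex, and 1.70 (adjusted p = 0.0663) without uninjured replicates 2 and 3. For cultures against uninjured cortex it was 1.30 ± 0.29 (adjusted p = 0.0025), and 0.84 (adjusted p = 0.127) without those replicates. For cultures against injured cortex it was -0.87 ± 0.29 (adjusted p = 0.0245), a call lost when any culture replicate or injured replicate 1 or 3 was left out, with adjusted p-values of 0.0551 to 0.0935.

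In the Jun family, Jun encodes c-Jun, the partner through which most AP-1 dimers form and a substrate of the JNK kinases. Jun was at 69.5, 48.5 and 42.2 CPM in the cultures, at 366, 517 and 422 CPM in injured cortex and at 856, 507 and 353 CPM in uninjured cortex. The cultures were lower than every in vivo library and the in vivo groups overlapped. Jun had a log2 fold change of -3.03 ± 0.35 (edgeR adjusted p = 2.86e-05) for cultures against injured cortex, -3.42 ± 0.36 (adjusted p = 7.36e-06) against uninjured cortex, and -0.40 ± 0.33 (adjusted p = 0.48) for injured against uninjured cortex. Junos, on the opposite strand, was at 7.43 to 8.97 CPM in the cultures, 2.30 to 3.44 CPM in injured cortex and 1.89 to 3.04 CPM in uninjured cortex.

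Junb encodes a Jun protein with weaker activation of many targets. It was at 164, 199 and 203 CPM in the cultures, at 1512, 2040 and 1170 CPM in injured cortex and at 1907, 751 and 462 CPM in uninjured cortex. The cultures were again below all in vivo libraries. Junb had a log2 fold change of -3.06 ± 0.47 (edgeR adjusted p = 0.000258) for cultures against injured cortex, -2.46 ± 0.46 (adjusted p = 0.000706) against uninjured cortex and 0.60 ± 0.44 (adjusted p = 0.426) for injured against uninjured cortex, where it was 1.39 (adjusted p = 0.0269) without uninjured replicate 1 and -0.29 without uninjured replicates 2 and 3. Prdx2 overlaps Junb on the opposite strand at 349 to 414 CPM in the cultures, 228 to 266 CPM in injured cortex and 176 to 186 CPM in uninjured cortex.

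Jund encodes the Jun protein that resting cells usually keep at a steady level. It was at 33.1, 26.7 and 28.0 CPM in the cultures, at 78.1, 126 and 165 CPM in injured cortex and at 152, 114 and 82.1 CPM in uninjured cortex. It too was lower in every culture than in any in vivo library. Jund had a log2 fold change of -2.07 ± 0.30 (edgeR adjusted p = 0.000154) for cultures against injured cortex, -1.99 ± 0.30 (adjusted p = 0.000138) against uninjured cortex and 0.08 ± 0.29 (adjusted p = 0.893) for injured against uninjured cortex. The last value is under 0 with upper-quartile factors (-0.03) and with library sizes without the most abundant genes (-0.02).

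**Figure D2:**
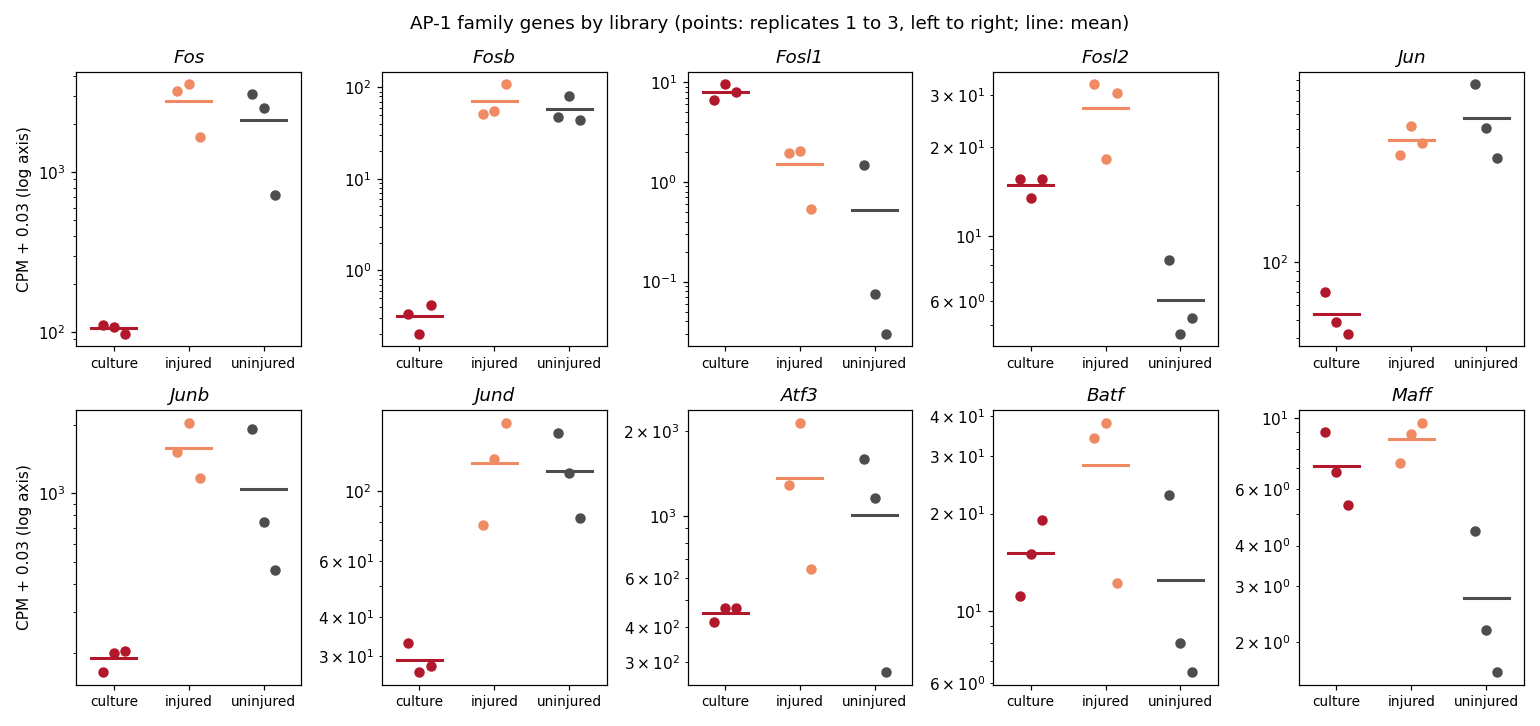
TMM-normalised CPM plus 0.03 (log axis, each panel with its own range) of each AP-1 family gene in the 3 cultures, 3 injured and 3 uninjured cortex libraries. Points are replicates 1 to 3 from left to right and lines are group means. Fos, Fosb, Jun, Junb and Jund sit lower in every culture than in any in vivo library, Fosl1 sits higher, and Fosl2 takes 3 separate levels.

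Among the related factors, Atf3 encodes a stress-induced factor that dimerises with Jun proteins and can repress. It was at 417, 468 and 467 CPM in the cultures, at 1284, 2147 and 648 CPM in injured cortex and at 1595, 1156 and 277 CPM in uninjured cortex. The cultures lay close together and below injured cortex, but uninjured replicate 3 was lower still. The log2 fold change was -1.59 ± 0.55 (edgeR adjusted p = 0.0301) for cultures against injured cortex, and the call did not hold when injured replicate 2 (-1.09, adjusted p = 0.111) or any single culture replicate (adjusted p = 0.0774 to 0.099) was left out. Against uninjured cortex it was -1.16 ± 0.54 (adjusted p = 0.0816), and -1.62 (adjusted p = 0.00771) without uninjured replicate 3. That comparison also passed with upper-quartile factors (-1.35, adjusted p = 0.0461), with DESeq2 (-1.20, adjusted p = 0.0386) and with the 2 groups fitted alone (-1.24, adjusted p = 0.0232). It passed as well with library sizes without the most abundant genes (-1.53, adjusted p = 0.0211) and with injured replicate 3 left out (adjusted p = 0.0351). Without a filter on low counts it was -1.15 (adjusted p = 0.00139), with the limit given for Fosl1. For injured against uninjured cortex it was 0.43 ± 0.54 (adjusted p = 0.664).

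Batf encodes a small AP-1 factor of lymphocytes and dendritic cells that pairs with Jun proteins. Its level was 11.1, 14.9 and 19.1 CPM in the cultures, 34.3, 38.1 and 12.2 CPM in injured cortex and 22.9, 7.96 and 6.47 CPM in uninjured cortex. All 3 groups overlapped, and no comparison was called: the log2 fold change was -0.90 ± 0.49 (edgeR adjusted p = 0.142) for cultures against injured cortex, 0.27 ± 0.49 (adjusted p = 0.644) against uninjured cortex and 1.18 ± 0.49 (adjusted p = 0.15) for injured against uninjured cortex. Leaving out injured replicate 3 gave a call of -1.26 (adjusted p = 0.0266) for cultures against injured cortex and of 1.52 (adjusted p = 0.0215) for injured against uninjured cortex. The second of these was 1.98 (adjusted p = 0.0163) when uninjured replicate 1 was the library left out. Without a filter on low counts both passed as well (adjusted p = 0.00856 and 0.000998), with the limit of that fit given for Fosl1. Summed over 9 markers, T and NK cell genes were at 11.2 to 16.5 CPM in the cultures, at 373, 150 and 136 CPM in injured replicates 1 to 3 and at 13.1 to 49.6 CPM in uninjured cortex. Cd8a and Ncr1 were at 0 in culture 1, Ncr1 alone in cultures 2 and 3, and Cd3e and Cd8a in uninjured replicate 1. Dendritic cell markers (7 genes) summed to 5.46 to 6.17, 858 to 1187 and 1056 to 1653 CPM in the same order of groups, of which Siglech, also on the microglial list, was 66.4% to 97.7% in vivo. Without Siglech they were at 399, 206 and 101 CPM in injured replicates 1 to 3 and at 33.0 to 65.1 CPM in uninjured cortex. The part of these lists in the Batf values was not tested.

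Maff encodes a small Maf protein without an activation domain. It was at 9.03, 6.73 and 5.32 CPM in the cultures, at 7.22, 8.90 and 9.63 CPM in injured cortex and at 4.42, 2.16 and 1.59 CPM in uninjured cortex. The cultures and injured cortex overlapped, and both lay above uninjured cortex. The log2 fold change was 1.66 ± 0.39 (edgeR adjusted p = 0.0166) for injured against uninjured cortex and 1.37 ± 0.39 (adjusted p = 0.0096) for cultures against uninjured cortex, while it was -0.29 ± 0.38 (adjusted p = 0.542) for cultures against injured cortex. Against uninjured cortex the injured call was lost without uninjured replicate 2 (1.49, adjusted p = 0.0846) or 3 (1.37, adjusted p = 0.0704) and without both (0.94, adjusted p = 0.41). The call for the cultures was lost without both (0.66, adjusted p = 0.284) and with library sizes without the most abundant genes (0.98, adjusted p = 0.0525).

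Levels of different genes were compared per kilobase of exon (GENCODE M21 lengths). In the cultures Atf3 led, at 209 CPM per kb on average, ahead of Junb at 82.1 and Fos at 44.7. Jund (17.6), Jun (16.7), Batf (10.7), Fosl1 (3.93), Maff (2.71), Fosl2 (1.53) and Fosb (0.0465) followed, where Jund and Jun, Jun and Batf, and Fosl1 and Maff overlapped in range. In injured cortex Fos averaged 1192 CPM per kb, Junb 684, Atf3 631, Jun 136 and Jund 73.8, and Batf (20.1), Fosb (11.4), Maff (3.31), Fosl2 (2.80) and Fosl1 (0.727) were lower. The neighbours Fos and Junb, Junb and Atf3, Batf and Fosb, and Maff and Fosl2 overlapped there. In uninjured cortex the order was Fos (899), Atf3 (469), Junb (452), Jun (179), Jund (69.7), Fosb (9.25), Batf (8.84), Maff (1.05), Fosl2 (0.624) and Fosl1 (0.243), with overlap between all neighbours but Jun and Jund, Jund and Fosb, and Batf and Maff. Atf3 came first in 3 of 3 cultures and Fos in all 6 in vivo libraries.

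The make-up of the family message is given as the share of each gene. Per kilobase, Atf3 held 53.7% ± 1.22 of the family level in the cultures, against 21.7% ± 5.15 in injured and 21.0% ± 4.52 in uninjured cortex (SD, n = 3 each). Fos held 11.5% ± 1.19 in the cultures, 43.1% ± 4.64 in injured cortex and 42.4% ± 6.04 in uninjured cortex. Junb held 21.1% ± 1.56, 25.3% ± 2.80 and 21.7% ± 5.89 in the same order of groups.

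**Figure D3:**
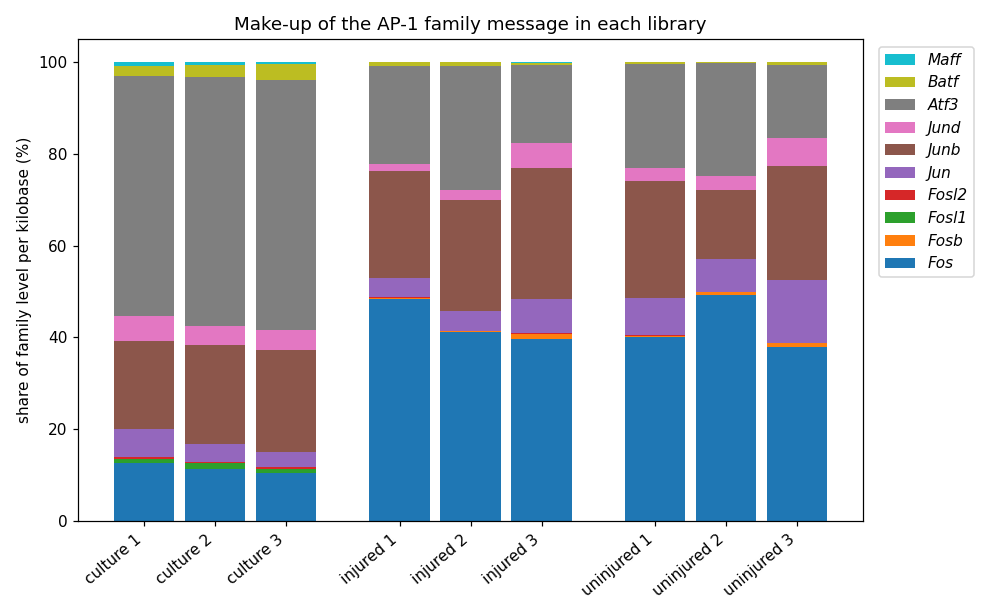
Share of the summed level per kilobase of the 10 AP-1 family genes (y axis, %) in each library (x axis). Atf3 (grey) fills about the middle and upper part of the culture bars, on average 53.7%, and Fos (blue) is the base of the in vivo bars, on average 43.1% in injured and 42.4% in uninjured cortex.

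Within the Fos family, reads of Fosl1 were set against Fos and Fosl1 together. Fosl1 held 5.59%, 8.13% and 7.53% of them in the cultures, 0.0604%, 0.0560% and 0.0307% in injured cortex, and 0.0465%, 0.00177% and 0% in uninjured cortex. Such a share rises with less Fos as well as with more Fosl1. For cultures against injured cortex the log2 fold change was -4.74 for Fos and 2.45 for Fosl1. In this share the cultures were far above both in vivo groups, which overlapped. The difference was 7.03 percentage points for cultures against injured cortex and 7.07 against uninjured cortex, each with a two-sided exact permutation p = 0.1, the smallest that 3 against 3 allow, and 0.0329 for injured against uninjured cortex (exact p = 0.2). Atf3 reads per Fos read, a ratio chosen after the values were seen, were 3.76, 4.37 and 4.81 in the cultures. They were 0.401, 0.605 and 0.389 in injured cortex and 0.517, 0.456 and 0.385 in uninjured cortex. The exact permutation test gave p = 0.1 for the cultures against either group and p = 0.8 between the in vivo groups. Because the ratio was picked from these same values, those p-values are no support and the ratio is a description. Atf3 itself was at -1.59 and -1.16 (log2) in the cultures against injured and uninjured cortex, so the ratio was higher because Fos was lower still.

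Genes with levels most like Fos over the 9 libraries were Zfp36 (Pearson r = 0.997), Btg2 (0.992), Egr1 (0.991), Yju2 (0.990) and Scamp2 (0.989), out of 10321 genes of which 178 had an r above 0.95. The closest to Fosl1 were Tubb6 (0.997), Pold3 (0.990), Map2k3 (0.989), Hbegf (0.988) and Fzr1 (0.987), with 104 genes above 0.95. These values describe libraries that fall into 3 groups, so the differences between groups enter every r. Egr1, an immediate early gene, averaged 52.8 CPM in the cultures, 1452 CPM in injured cortex and 1088 CPM in uninjured cortex. Tubb6, a beta-tubulin, averaged 777 CPM in the cultures, 161 CPM in injured cortex and 43.3 CPM in uninjured cortex. Among the members themselves, Jun and Jund (r = 0.966) and Fos and Junb (0.965) varied most alike, and Fosl2 went with Maff (0.884).

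Other basic leucine zipper factors, which can dimerise with or compete against AP-1 proteins, were counted in the same way. Of 23 tested, 2 were higher (8.70%) and 6 lower (26.1%) in cultures than in injured cortex, against 20.0% and 30.1% of all genes, with a median log2 fold change of -0.36. Bach2, a repressor of lymphoid cells, averaged 0.949 ± 0.289 CPM in the cultures and 10.6 ± 2.56 CPM in injured cortex (SD, n = 3 each; log2 fold change -3.49, edgeR adjusted p = 1.52e-05). Bach1, which represses heme oxygenase, averaged 6.91 ± 1.48 CPM in the cultures, against 29.4 ± 4.12 CPM in injured cortex (-2.09, adjusted p = 4.51e-05). Against uninjured cortex 5 were higher and 5 lower in the cultures (21.7% each, against 27.5% and 33.1% of all genes; median 0.15), and 3 and 3 with uninjured replicates 2 and 3 out. Between the in vivo groups 4 were higher in injured cortex (17.4%, against 8.99% of all genes) and 0 lower (median 0.51): Crem (2.64, edgeR adjusted p = 0.00511), which encodes the inducible repressor ICER, Cebpb (1.79, adjusted p = 0.0147), Nfe2 (1.84, adjusted p = 0.0148) and Cebpd (0.86, adjusted p = 0.0476). Without uninjured replicates 2 and 3, 0 of these 4 calls were made, and leaving out single libraries gave 1 to 7 higher genes: 1 when injured replicate 1 or uninjured replicate 2 was out, 2 when uninjured replicate 3 was out and 7 when injured replicate 3 was out. The lower genes for cultures against injured cortex then numbered 11 with injured replicate 3 out.

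Upstream, 24 MAP kinases and inducers of the serum response factor complex were tested. In the cultures 7 were higher and 6 lower than in injured cortex (median log2 fold change 0.41), and 10 were higher and 6 lower than in uninjured cortex (0.43). The called shares, 54.2% and 66.7%, were near those of all genes, 50.1% and 60.5%, so the total counts show nothing particular to these genes. By direction, 29.2% and 41.7% of the list were higher, against 20.0% and 27.5% of all genes. In both comparisons 25% were lower, against 30.1% and 33.1% of all genes. The medians over all genes were -0.19 and -0.17. This lean towards higher values was not tested. Mapk10, a JNK gene of neural cells, averaged 1.79 ± 0.22 CPM in the cultures, 11.1 ± 1.67 CPM in injured cortex and 15.1 ± 3.35 CPM in uninjured cortex, with log2 fold changes of -2.63 and -3.07 (edgeR adjusted p = 1.81e-05 and 3.49e-06). Mapk8, which encodes JNK1, was lower in the cultures by the same test, at 3.82 ± 0.15 CPM against 12.6 ± 2.52 CPM in injured cortex and 15.1 ± 2.24 CPM in uninjured cortex. Mapk9, another JNK gene, went the other way. Its log2 fold changes were 0.87 against injured and 1.12 against uninjured cortex (edgeR adjusted p = 0.00704 and 0.00112). Only Mapk13, a p38 kinase, was called between injured and uninjured cortex (1.21 ± 0.19 and 0.167 ± 0.089 CPM, log2 fold change 2.76, edgeR adjusted p = 0.00581). It was 4.17% of the list, where 11.9% of all genes were called. The count of higher genes for cultures against injured cortex was 4 without culture replicate 1 or 3 or injured replicate 1. The count of lower genes against uninjured cortex was 3 without uninjured replicate 3, and the counts were 7 higher and 3 lower with uninjured replicates 2 and 3 both out. Between the in vivo groups 4 genes were higher with injured replicate 3 out, 3 with uninjured replicate 1 out and 0 with uninjured replicates 2 and 3 out.

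Feedback genes encode the phosphatases that switch MAP kinases off and the proteins that bind and degrade AU-rich messages such as that of Fos. Of 15 tested, 3 were higher and 8 lower in cultures than in injured cortex (median log2 fold change -0.79), and 4 were higher and 8 lower than in uninjured cortex (-0.96). The lower genes were 53.3% of the list in both, against 30.1% and 33.1% of all genes, and the higher ones 20.0% and 26.7%, against 20.0% and 27.5%. With uninjured replicates 2 and 3 out, 2 were higher and 6 lower than in uninjured cortex. Zfp36, which encodes tristetraprolin and promotes decay of short-lived messages, averaged 101 ± 10.9 CPM in the cultures, 1786 ± 531 CPM in injured cortex and 1168 ± 668 CPM in uninjured cortex. Its log2 fold change was -4.15 (edgeR adjusted p = 2.69e-05) for cultures against injured and -3.54 (adjusted p = 4.83e-05) against uninjured cortex. Dusp4, a nuclear MAP kinase phosphatase, went the other way, at 19.1 ± 2.43 CPM in the cultures, 1.33 ± 0.61 CPM in injured cortex and 0.260 ± 0.133 CPM in uninjured cortex. Of the list 20% was higher and 0% lower in injured than in uninjured cortex, against 8.99% and 2.87% of all genes. For injured against uninjured cortex, Dusp5 (3.59, edgeR adjusted p = 0.00114), Dusp4 (2.29, adjusted p = 0.0101) and Dusp2 (2.39, adjusted p = 0.0192) were higher and 0 were lower, and 1 was higher without uninjured replicates 2 and 3.

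Dissociation and immediate early genes were listed apart from the members. Of 25 tested, 20 were lower and 3 higher in cultures than in injured cortex (median log2 fold change -3.28), against 30.1% and 20.0% of all genes, and 15 were lower and 3 higher than in uninjured cortex (-2.16), or 17 and 3 with uninjured replicates 2 and 3 out. The 15 lower and 3 higher genes were 60% and 12% of the list, against 33.1% and 27.5% of all genes. Nr4a1, an immediate early nuclear receptor, averaged 5.43 ± 1.25 CPM in the cultures and 274 ± 26.2 CPM in injured cortex (-5.65, edgeR adjusted p = 1.91e-06). Klf4 averaged 4.63 ± 1.46 CPM in the cultures and 48.6 ± 0.44 CPM in injured cortex (-3.40, adjusted p = 4.85e-06). Ccn1, a secreted matrix protein gene, was higher in the cultures than in uninjured cortex, at 924 ± 92.7 CPM against 83.0 ± 47.1 CPM (3.48, edgeR adjusted p = 9.36e-06). Between the in vivo groups 8.99% of all genes were higher in injured cortex and 2.87% lower. Of this list 6 were higher and 0 lower (median 0.42), Nr4a2 (3.95), Nr4a1 (2.28), Nr4a3 (3.69) and Egr3 (2.46) among them. The count was 11 without uninjured replicate 1 and 1 without uninjured replicates 2 and 3.

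The summed list was at 1772 to 1819 CPM of the library total in the cultures, 8048 to 8611 CPM in injured cortex and 8619, 5802 and 3061 CPM in uninjured replicates 1 to 3. The uninjured libraries fell in the same order in the family's share of counts. By the labels, papain and the sort preceded RNA extraction in the in vivo groups alone. In comparisons of the cultures, dissociation and the difference between culture and tissue therefore cannot be told apart for any member or list.

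Textbook AP-1 targets were more often called higher than lower in the cultures. The list was drawn up with earlier results of these data known, so its shares beside those of all genes are a description. Of 25 tested, 12 were higher and 6 lower than in injured cortex (median log2 fold change 1.16), against 20.0% and 30.1% of all genes, and 16 were higher and 2 lower than in uninjured cortex (2.50), or 13 and 2 with uninjured replicates 2 and 3 out. The 16 higher and 2 lower genes were 64% and 8% of the list, against 27.5% and 33.1% of all genes. Mmp3, Mmp10 and Mmp13 passed the filter on low counts only through the cultures. Of the other 22 genes 9 were higher and 6 lower than in injured cortex, and 13 were higher and 2 lower than in uninjured cortex. Mmp12, macrophage elastase, averaged 24634 ± 1870 CPM in the cultures, 7.52 ± 4.17 CPM in injured cortex and 1.75 ± 0.44 CPM in uninjured cortex, with log2 fold changes of 11.68 and 13.79 (edgeR adjusted p = 1.27e-07 and 3.75e-08). It alone made up 78.8% to 80.4% of the summed list in the cultures. The other targets summed to 4484 to 5087 CPM of the library total in the cultures, 2265 to 2568 CPM in injured cortex and 1207 to 1689 CPM in uninjured cortex. Mmp13, a collagenase with a well-known AP-1 site in its promoter, averaged 419 ± 89.3 CPM in the cultures, 0.512 ± 0.336 CPM in injured cortex and 0.0818 ± 0.0719 CPM in uninjured cortex. Mmp3, a stromelysin, averaged 46.6 ± 6.42 CPM in the cultures and 0.313 ± 0.168 CPM in injured cortex. For injured against uninjured cortex 8.99% of all genes were higher and 2.87% lower. Of the targets 11 were higher and 0 lower (median 1.75), among them Mmp9, a gelatinase (17.2 ± 3.12 and 1.38 ± 0.34 CPM), and Fasl, the Fas ligand of cytotoxic lymphocytes (13.9 ± 7.66 and 0.796 ± 0.337 CPM). This count was 6 without uninjured replicates 2 and 3. The lower count for cultures against injured cortex was 3 without culture replicate 2 or 3 or injured replicate 1. Fibroblast markers were also higher in the cultures, 7 of 8 against injured cortex (median log2 fold change 2.68) and 6 of 8 against uninjured cortex (2.48), with 0 lower in either. Of all genes 20.0% were called higher than in injured cortex and 27.5% than in uninjured cortex. Of 7 proliferation genes, 5 were higher than in injured cortex and 7 than in uninjured cortex. Lyz2 moved the same way, while most other monocyte and macrophage markers were lower than in injured cortex, as given above. The part of these genes in the target values was not tested.

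**Figure D4:**
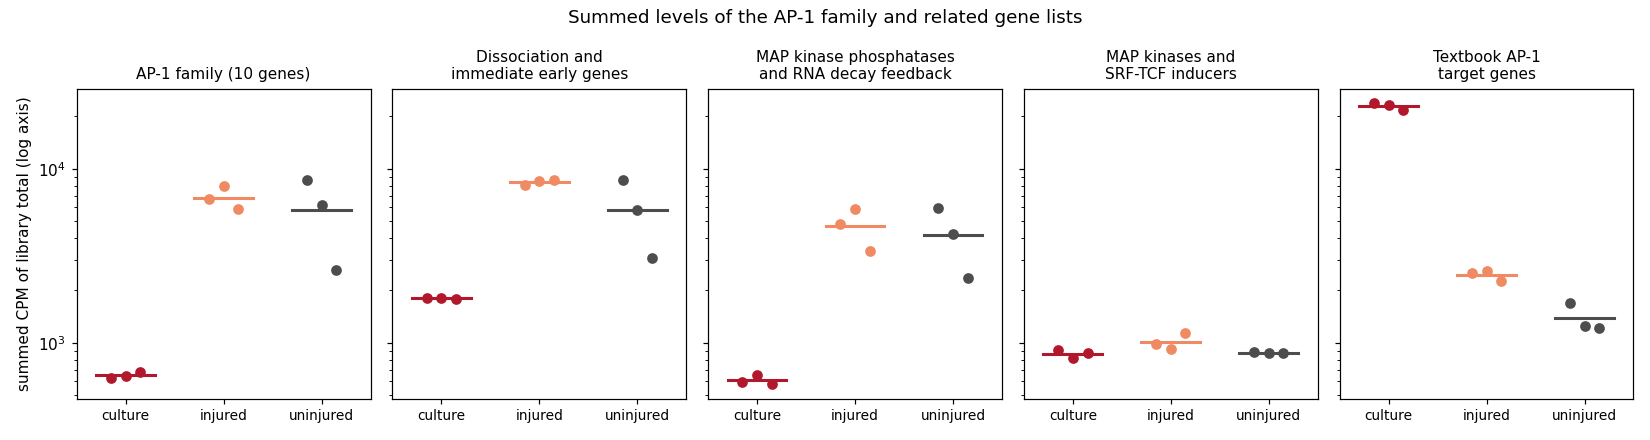
Summed CPM of the library total (log axis) of the 10 AP-1 family genes and 4 related lists, with 1 point per library and lines at the group means. The family, the dissociation and immediate early genes and the feedback genes are lowest in the cultures. The targets are highest in the cultures at 21762 to 24006 CPM, of which Mmp12 is 78.8% to 80.4%. The MAP kinase list is at 813 to 1142 CPM on this scale. These sums leave out the TMM factors, which were 0.716 to 0.767 in the cultures and 0.938 to 1.39 in vivo. With them, the median log2 fold change of the MAP kinase list was 0.41 for cultures against injured cortex and 0.43 against uninjured cortex.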

How the data were processed

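The deposited values are raw gene counts made by the authors. HISAT2 and GRCm39 are named in the submitters' processing notes, while the sources used here give no counting tool, annotation or strand setting. Of 56748 genes, 19741 had 0 counts in every library. Of the symbols, 77 were shared by several genes, and the gene with the highest total kept the symbol. Precision follows the totals, from 12205049 to 24302770 counts, and intervals on single counts cover counting error only.

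The tests used edgeR 4.0.16 under R 4.3.3, with filterByExpr at its defaults (18093 genes tested), TMM scaling, and a quasi-likelihood fit of the 3 groups with 6 residual degrees of freedom. P-values were adjusted over all genes tested by Benjamini-Hochberg and calls made under 0.05. They measure the spread between these libraries. CPM of single genes is TMM-normalised, and sums over lists are CPM of the library total. Shares of counts were compared with exact permutation tests over libraries. The fit was also run on simulated counts in which a small part of the genes differed, in the cultures alone. In these data 50.1% and 60.5% of genes were called for the cultures against injured and uninjured cortex. The simulation therefore does not test the scaling or the calls in a setting like this one.

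The members and the gene lists were chosen with earlier results of these data known, so their shares beside those of all genes are descriptions. All members are named. From each related list up to 4 called genes per comparison with the smallest adjusted p and at least 1 CPM in a group could be named, and of these the text gives some. Mapk9 is named outside this rule, beside the other JNK genes. Likeness was computed on log2 CPM (prior count 2) of genes of at least 10 CPM in a group. Alternatives were other scalings, filters and tests (DESeq2 1.42.0, limma 3.58.1), a replicate block and each library left out. Leaving out uninjured replicates 2 and 3 together leaves 1 uninjured library, assumed to vary like the others. Promoter and length tables are of GRCm38, and their coordinates were not mixed with the counts.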

Additional observations from a re-analysis of the deposited data

How the results depend on the processing

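Of 570 alternative values of single members, 515 kept their direction and their side of the threshold, 23 lost the call, 16 gained one and 16 changed sign, all of them uncalled values. The cause was not tested. For injured against uninjured cortex the log2 fold change ran over left-out libraries from -0.024 (without uninjured replicate 3) to 0.80 for Fos, from -0.15 (without injured replicate 3) to 0.60 for Fosb, from -0.67 to 0.028 (without uninjured replicate 1) for Jun, from -0.21 to 0.34 for Jund and from -0.058 (without injured replicate 2) to 0.94 for Atf3. Jund was under 0 without injured replicate 3 or uninjured replicate 3 (-0.14), and Atf3 also without the second of these (-0.037). With uninjured replicates 2 and 3 both left out it was -0.15 for Fos, -0.29 for Junb, -0.32 for Jund and -0.24 for Atf3. Jund was also at -0.034 with upper-quartile factors and -0.016 with library sizes without the 100 most abundant genes. For cultures against uninjured cortex Batf was -0.10 with those library sizes, -0.61 with both replicates out, and -0.048 (without uninjured replicate 3) to 1.07 over left-out libraries.

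For cultures against injured cortex 8 members were called, and 5 with glmTreat against a log2 fold change of 1 or without any 1 culture replicate (range over left-out libraries 5 to 8). Against uninjured cortex 8 were called, 6 with glmTreat, 7 with uninjured replicates 2 and 3 out, and 8 to 9 over single left-out libraries. Between the in vivo groups 2 were called, 4 without a filter on low counts, 0 without uninjured replicates 2 and 3, 1 with glmTreat and 1 to 5 over left-out libraries. Genes called there were 2145, against 1369 with the 2 groups fitted alone, 462 without uninjured replicates 2 and 3, and 974 (without injured replicate 1) to 4102 (without injured replicate 3) over left-out libraries. For cultures against uninjured cortex 10954 genes were called, and 6997 without uninjured replicates 2 and 3. Counted as Fosl1 and Fosl2 out of the 4 Fos genes, the share differed by 16.7, 17.5 and 0.719 points in the 3 comparisons. Over left-out libraries the Fosl1 share differed by 6.51 to 7.78 points for cultures against injured cortex, 6.54 to 7.81 against uninjured cortex and 0.0249 to 0.0482 between the in vivo groups.

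Library sizes without the most abundant genes moved the median gene by -0.26, -0.41 and -0.15 (log2) and upper-quartile factors by -0.07, -0.19 and -0.13. Higher genes were 39.9%, 45.4% and 75.8% of the calls, and 29.2%, 31.6% and 65.7% with those library sizes. In the last comparison they were 64.0% with upper-quartile factors and 60.6% with DESeq2. Same-numbered libraries did not deviate together in every comparison (r from -0.09 to 0.35), so the numbers were not taken as pairs. With a replicate block 9096, 11060 and 2203 genes and 8, 8 and 2 members were called. Low counts limit Fosb in the cultures and Fosl1 in vivo. Without a filter on low counts, p-values fell far at nearly unchanged sizes. For Fos in cultures against injured cortex the edgeR adjusted p went from 2.52e-05 to 1.97e-32. Calls gained in that fit are therefore weak support.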
